A study of Mus musculus with 4 samples.

Results

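Voltage-gated and related potassium, sodium and calcium channels are built from a pore-forming subunit, which opens the membrane to 1 kind of ion, and from auxiliary subunits, which set where the channel goes and how it gates. In the retina, sodium and potassium channels shape the spikes of ganglion cells, calcium channels drive transmitter release, and inward rectifiers carry the potassium currents of Müller glia. The gamma subunits named Cacng include the transmembrane AMPA receptor regulatory proteins (TARPs), which carry glutamate receptors to the synapse. YTHDF2 is a reader protein that binds mRNA carrying N6-methyladenosine (m6A) and is known to speed the decay of the mRNA it binds. The question of the series was which retinal mRNAs are bound by YTHDF2, and here the channel transcripts were followed through the anti-YTHDF2 RNA immunoprecipitation (RIP).

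Channel genes were chosen by symbol, as names that start with Kcn, Scn or Cacn and fit the pattern of a channel subunit. The count table held 137 such genes among 52550. Of these, 134 were protein-coding and 3 were antisense RNAs (Kcnq1ot1, Kcnmb4os1 and Kcnmb4os2). At least 1 count was found for 113 of them, 24 had none in any library, 78 had counts in every library, and 80 passed the filter on low counts and were tested. The 33 that had counts but were not tested reached at most 21 counts in any library.

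Retinas came from wild type C57BL/6 mice at postnatal day 0 and were dissociated with papain before lysis. The 4 libraries were 2 inputs, total retinal RNA before the pulldown, and 2 RIP libraries, RNA eluted from the anti-YTHDF2 beads; the labels name no treatment, mutation or transgene. The libraries hold RNA of all retinal cells, so that fewer cells of a type and less RNA per cell cannot be told apart in the inputs. The methods also name a control IgG pulldown, which was not analysed here, so RIP is compared with input only.

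Total counts ran from 19530226 to 39499994 per library, of which 8.37% to 11.5% fell on protein-coding genes. Channel genes took 9620 counts in input 1, 7611 in input 2, 5695 in RIP 1 and 5294 in RIP 2. Markers of progenitors, ganglion cells, photoreceptor precursors and amacrine cells were present in every library. The pigment epithelium markers Rpe65 and Pmel, the astrocyte marker Aqp4 and the lens marker Cryaa were at 0 throughout. The other lens marker, Cryba1, had 3 counts in input 2 alone. The other astrocyte marker, Gfap, had 13, 9, 17 and 21 counts in input 1, input 2, RIP 1 and RIP 2. The microglial markers Cx3cr1 and Csf1r and the endothelial marker Cldn5 had counts in every library, and the endothelial marker Pecam1 in the inputs only. Input levels are given as FPKM (fragments per kilobase of transcript, scaled to the size of the library). Comparisons between RIP and input are given as CPM (counts scaled to library size after TMM normalization) and as log2 fold changes from edgeR's quasi-likelihood test.

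In newborn retina the channel repertoire was led by TARP gamma subunits. Cacng7 was the most abundant channel transcript, at 20.2 and 10.9 FPKM in the inputs. Cacng4 followed at 7.62 and 4.4, and Cacng3 was at 4.38 and 2.75 FPKM. Cacnb3, a cytoplasmic beta subunit of calcium channels, lay between them at 4.70 and 2.96 FPKM. These 4 levels overlapped between neighbours, apart from Cacng7, whose lower input lay above both inputs of Cacng4.

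The next 4 genes in the order of input levels were Kcne1l, Kcnk1, Kcna5 and Cacna1h. Kcne1l, a small single-span subunit of the KCNE kind, was at 4.90 and 2.18 FPKM. Kcnk1, a K2P leak channel, was at 2.08 and 2.16 FPKM. The lower input of Kcne1l lay just above both of Kcnk1, by less than the spread between the inputs of Kcne1l. Kcna5, a Shaker-type delayed rectifier, gave 1.27 and 1.31 FPKM, and Cacna1h, a T-type calcium channel pore, gave 1.27 and 1.25. These last levels overlapped. In all, 8 channel genes reached 1 FPKM in both inputs and 128 were under 1 FPKM in both.

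**Figure D1:**
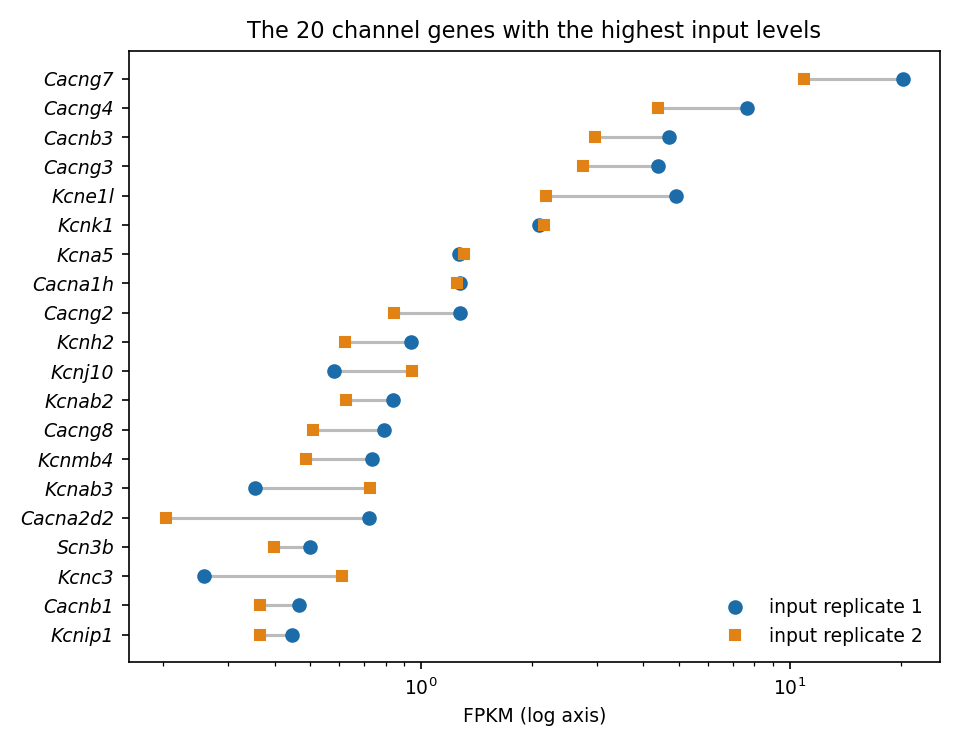
FPKM in the 2 inputs, on a log axis, for the 20 channel genes with the highest mean input level; circles are replicate 1, squares replicate 2 and grey lines join them. Cacng7 lies above the others at 20.2 and 10.9, and the TARP and beta subunit transcripts shown were higher in replicate 1.

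Genes that carry the currents of mature retinal neurons were low. Kcnc2, a fast delayed rectifier, gave 0.169 and 0.335 FPKM. Scn1a, Scn2a, Scn3a and Scn8a, the sodium channel pores of neurons, ranged from 0.0219 FPKM for Scn1a to 0.239 for Scn3a. Cacna1f, the L-type pore of photoreceptor synapses, had 3, 6, 6 and 5 counts in input 1, input 2, RIP 1 and RIP 2 and was not tested.

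A transcript was called enriched when its log2 fold change was at least 1 with an unadjusted p below 0.05, and depleted when it was -1 or lower with the same limit on p. By these limits 5 channels were enriched, Kcna4, Cacna1b, Kcnk10 and Kcnv2 among them, and Kcnj6, Kcnj3, Cacng2, Cacng7, Kcna2, Cacng3, Kcnip1, Cacng8 and Kcnk2 depleted. The 5 enriched made 6.25% of the 80 tested, where 9.43% of all 13632 tested genes were enriched. The 9 depleted made 11.25%, where 17.2% of all genes were depleted. Kcnj6 and Kcnj3, 2 of the 9, passed the low-count filter through the inputs alone and so had to differ. At an adjusted p below 0.05, 2 channel transcripts lay above input, against 3.48% of all genes, and 5 below, Kcnj6 among them, against 9.78%. With the replicate as a block, which pairs each RIP with its own input, 4 lay above (5.29% of all genes). Whether these shares differ from those of all genes was not tested.

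The median of the channels lay slightly above that of all genes. Log2 fold changes were above 0 for 47 of the 80 and below 0 for 33. Their median was 0.14, against -0.05 over all tested genes, a difference of 0.19. In replicate 1 the same difference was 0.09 and in replicate 2 it was 0.23 (SD 0.10, n = 2). It turned to -0.29 when trends with transcript length and GC content were taken out. Both RIP libraries lay above both inputs for 20 of the 80 (29.6% of all genes did) and below both for 15 (31.3% of all genes).

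Of 55 tested pore-forming subunits, 5 were enriched (9.09%, against 9.43% of all genes) and 4 depleted (7.27%, against 17.2%). Kcnj6 and Kcnj3, which passed the low-count filter through the inputs alone, are among these 4. The median log2 fold change of the pore-forming subunits was 0.31. Of 23 tested auxiliary subunits, none was enriched and 5 were depleted (21.7%, against 17.2% of all genes), with a median of -0.36. Outside the Cacng family, the other 17 auxiliary subunits had 1 depleted member and a median of 0.10. The difference between the kinds of subunit was not tested. By ion, potassium channel genes gave 4 enriched and 5 depleted of 47, and calcium channel genes 1 and 4 of 22. None of the 9 sodium channel genes was called. Over all tested genes the shares were 9.43% enriched and 17.2% depleted, and a difference between the ions was not tested.

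**Figure D2:**
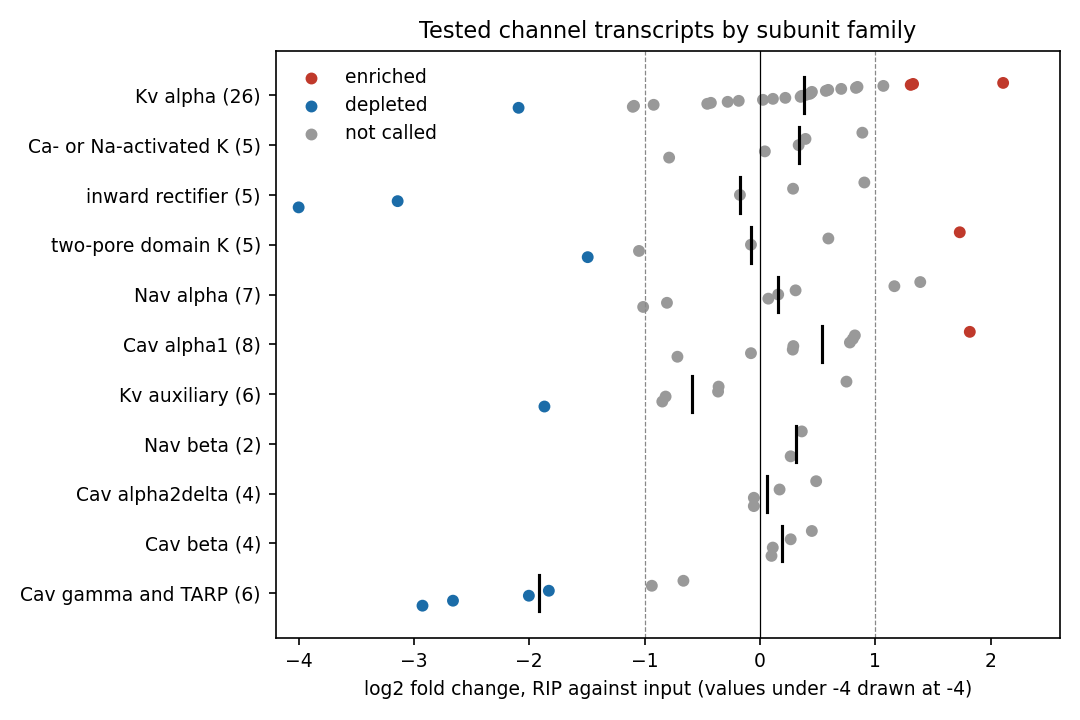
Log2 fold change, RIP against input, of each tested protein-coding channel transcript by subunit family, with the number tested in parentheses; red is enriched, blue depleted and grey not called, and black bars are family medians. Dashed lines mark -1 and 1, and all 6 points of the Cav gamma and TARP family lie below 0.

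Of the called transcripts, 4 enriched and 4 TARPs are shown with the GGACT nearest the stop codon, since GGACT is a common form of the sequence at which m6A is placed and m6A is known to gather near stop codons. The 25-base windows below are written 5′ to 3′ along the mRNA, with GGACT in capitals. They were read from the GRCm38 transcripts of GENCODE M21, taking for each gene its longest annotated coding transcript. The first 4 belong to enriched transcripts.
Kcna4: atctacaaagGGACTatgaagtaac
Cacna1b: ctgcactttgGGACTcagcactggc
Kcnk10: cattggaattGGACTatgtgttgtc
Kcnv2: ggcacaacaaGGACTccccacgaga
The next 4 belong to depleted TARP transcripts.
Cacng2: aggacagcaaGGACTctctccacgc
Cacng7: tgcctttccgGGACTccattttctc
Cacng3: gaaaccaaatGGACTcagccccctc
Cacng8: cggaggacacGGACTacgaccacga

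The windows of Cacna1b (chr2:24606621-24606645, minus strand), Kcnv2 (chr19:27323856-27323880, plus strand), Cacng2 (chr15:77995183-77995207, minus strand) and Cacng8 (chr7:3411214-3411238, plus strand) lie in the coding sequence. Those of Kcna4 (chr2:107297828-107297852, plus strand), Kcnk10 (chr12:98434772-98434796, minus strand), Cacng7 (chr7:3367447-3367471, plus strand) and Cacng3 (chr7:122768961-122768985, plus strand) lie in the 3′ UTR. In the enriched transcripts, the A of GGACT was 23 nt past the stop codon in Kcnk10 and 953 nt past it in Kcna4. It was 63 nt before the end of the stop codon in Cacna1b and 571 nt before it in Kcnv2. In the TARPs, the A was 127 nt past the stop codon in Cacng3 and 511 nt past it in Cacng7. It was 46 nt before the end of the stop codon in Cacng2 and 940 nt before it in Cacng8. GGACT was searched on the sense strand of the whole transcript. Cacna1b held 15 copies, Cacng3 9, Cacng2 7, Kcna4, Kcnk10 and Kcnv2 5 each, Cacng7 2 and Cacng8 1.

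The density of GGACT was given by its median, which was 1.04 copies per kb in the 5 enriched, 1.12 in the 9 depleted and 1.04 in all 78 tested protein-coding channel transcripts, as it was in all 11953 tested protein-coding transcripts. At least 1 copy was present in 77 of the 78 channels and in 93.1% of all. A copy of GGACT is a match of letters only, and no measure of m6A was used.

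Cacna1b, the pore of N-type calcium channels at presynaptic terminals, was the enriched channel with the smallest p. It had 72 and 132 input counts and 261 and 262 RIP counts, or 2.16, 3.85, 10.3 and 10.9 CPM. Both RIP libraries lay above both inputs and agreed closely with each other. The log2 fold change was 1.82 (SE 0.41, adjusted p = 0.023). With length and GC trends taken out it was 0.85, with an adjusted p of 0.262. The gene (ENSMUSG00000004113) lies on chromosome 2.

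Kcna4 carries the fast-inactivating A-type current of Kv1 channels. Its counts were 11 and 17 in input and 33 and 55 in RIP, or 0.33, 0.495, 1.31 and 2.29 CPM, without overlap. The log2 fold change of 2.11 (SE 0.61, adjusted p = 0.055) was the highest of the tested channels. With the replicate block the adjusted p was 0.029. It was the 1 channel still called enriched with the length and GC trends taken out, at 1.67.

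Kcnk10 is a stretch- and lipid-sensitive K2P channel. Input gave 25 and 42 counts, against 100 and 63 in RIP (0.75, 1.22, 3.96 and 2.62 CPM). The groups did not overlap, and the log2 fold change was 1.73 (SE 0.48, adjusted p = 0.049). With the trends taken out it was 1.0, with an adjusted p of 0.264.

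Kcnv2, a silent Kv subunit of photoreceptors, was enriched at the unadjusted limit. Kcnv2 had 0.90 and 1.08 CPM in the inputs, with 2.46 and 2.45 in RIP (30, 37, 62 and 59 counts). Its log2 fold change was 1.31 (SE 0.46, adjusted p = 0.097). With the trends taken out it was 0.67 and not called. Summed CPM of the photoreceptor precursor markers Crx, Otx2 and Rcvrn was 73.6 and 63.8 in input and 83.2 and 90.3 in RIP. Crx alone was higher, at 32.8 and 30.4 CPM in input and 58.4 and 58.7 in RIP. Otx2 was lower, from 40.4 and 33.3 to 24.6 and 31.4, and Rcvrn had 3 to 15 counts. Their part in the Kcnv2 result was not tested.

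**Figure D3:**
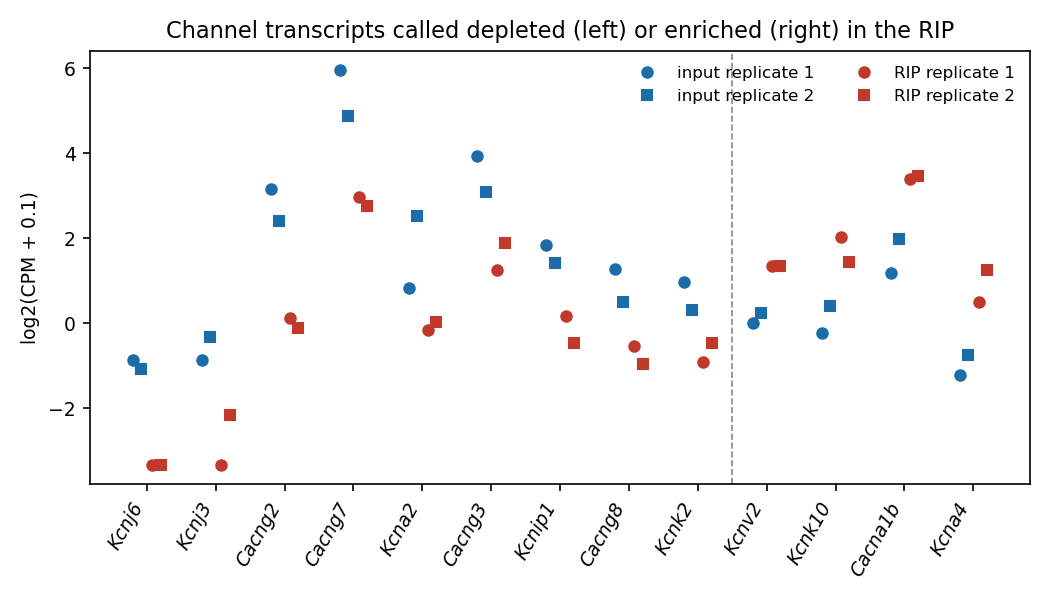
log2(CPM + 0.1) in each of the 4 libraries for the 9 depleted channel transcripts (left of the dashed line) and 4 of the enriched (right); blue marks are inputs, red marks RIP, circles replicate 1 and squares replicate 2. In each of these 13 the RIP marks lie on 1 side of both input marks, and Kcnj6 lies at the bottom in both RIP libraries because it had no counts there.

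The TARP family had the lowest median of the channel families. All 6 tested Cacng transcripts were below input in the fit. Of these, 4 were called depleted (17.2% of all genes were), 3 of them at an adjusted p below 0.05 (9.78% of all genes). Both RIP libraries lay below both inputs in 5 of the 6 (31.3% of all genes). The family's summed counts were 4131 in input 1 and 2155 in input 2, against 621 in RIP 1 and 656 in RIP 2. The median log2 fold change was -1.92. Cacng2, Cacng3, Cacng4, Cacng7 and Cacng8 were below 0 under every alternative run.

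Cacng2 (stargazin), the founding TARP, had 292 and 177 input counts and 25 and 20 RIP counts. This was 8.76 and 5.16 CPM against 0.991 and 0.832, with no overlap. The log2 fold change was -2.93 (SE 0.46, adjusted p = 0.0057). At 5510 nt, its transcript is longer than the median of the tested channels, 5077 nt. The other depleted TARP transcripts are shorter, at 2212 nt for Cacng7, 2777 nt for Cacng3 and 1897 nt for Cacng8. The median of the tested Cacng transcripts was 3138.5 nt.

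Cacng7, a type II TARP, had 2049 and 1007 input counts and 194 and 160 RIP counts, or 61.5, 29.3, 7.69 and 6.65 CPM. Input 1 was more than 2-fold above input 2, and both inputs lay above both RIP libraries. The log2 fold change was -2.66 (SE 0.44, adjusted p = 0.0070). Cacng3 gave 15.1 and 8.42 CPM in the inputs, with 2.30 and 3.58 in RIP, and its log2 fold change was -2.0 (SE 0.44, adjusted p = 0.022). Cacng8, which is known from hippocampal AMPA receptors, had 77, 45, 15 and 10 counts and a log2 fold change of -1.83 (SE 0.59, adjusted p = 0.077).

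The other tested members were lower by less. Cacng4 gave 34.0 and 17.3 CPM in input and 12.2 and 14.6 in RIP, without overlap, and a log2 fold change of -0.94 (unadjusted p = 0.048, adjusted p = 0.163), which misses the fold limit. Without input 1 Cacng4 was at -0.37, without input 2 at -1.35 and with library size alone at -0.59. Cacng5 was at -0.66 (adjusted p = 0.458), with overlapping groups. Cacng1, a skeletal muscle subunit, had 8 counts in 1 input and none elsewhere, and Cacng6 had no counts.

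Within the summed FPKM of all protein-coding channel genes, which does not depend on the scaling between libraries, the Cacng family held 56.0% and 44.6% in the inputs, with 18.3% and 20.8% in RIP. Cacng7 alone went from 32.5% and 24.7% to 7.21% and 6.52%. Pore-forming subunits held 20.1% and 33.0% in input and 49.4% and 50.2% in RIP.

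**Figure D4:**
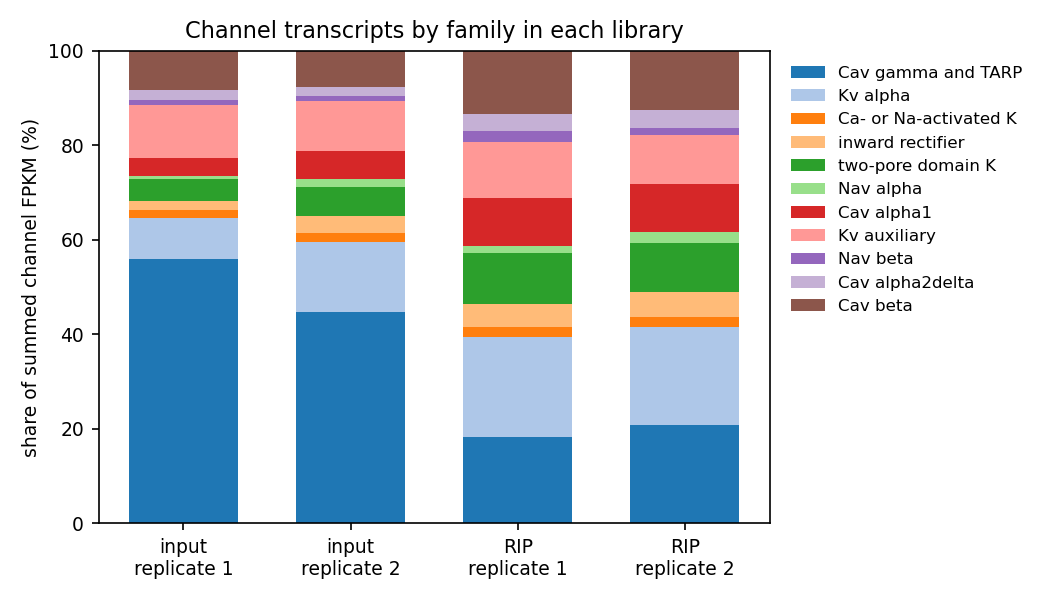
Share of summed channel FPKM, in percent, held by each subunit family in the 4 libraries, over the 134 protein-coding channel genes. The Cav gamma and TARP family, the lowest block, holds 56.0% and 44.6% in the inputs and 18.3% and 20.8% in RIP.

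Summed markers of ganglion cells and of amacrine and horizontal cells were also lower in the RIP. The sum of Rbpms, Pou4f1, Pou4f2, Isl1 and Sncg was 35.5 and 30.4 CPM in input and 13.6 and 12.9 in RIP. Sncg made most of this change, at 22.9 and 13.7 CPM in input and 1.59 and 1.79 in RIP, while Pou4f1 and Isl1 overlapped between the groups. The sum of Tfap2a, Tfap2b, Gad1 and Onecut1 was 56.3 and 91.7 CPM in input and 39.4 and 37.4 in RIP, although Gad1 was higher in RIP. Of the progenitor markers, Pax6 (98.1 and 95.1, then 60.1 and 55.7) and Sox2 (13.7 and 14, then 5.07 and 5.32) were lower in RIP as well. The part of these markers in the TARP result was not tested.

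Kcnj3, Kcnj6 and Kcnj9 are subunits of the GIRK potassium channels, which G protein-coupled receptors open in neurons. Kcnj6 and Kcnj3 were called depleted, on few counts. Both had under 10 counts in each RIP library and passed the filter through the inputs alone, so the calls are a description. Kcnj6 had 15 and 13 input counts and 0 in both RIP libraries. Taking 3 counts over both RIP libraries as the floor, it was at least 6.80-fold lower in the RIP. Kcnj3 had 15 and 24 input counts and 0 and 3 RIP counts, a ratio of RIP to input of 0.106 with a counting interval (95%) of 0.0209 to 0.332. Kcnj9 overlapped between the groups, with 11 and 17 input counts and 16 and 9 RIP counts.

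Kcnj10, the inward rectifier of Müller glia, went the other way. It was at 3.93 and 5.62 CPM in the inputs, against 8.76 and 9.15 in RIP, without overlap. The log2 fold change was 0.91 (SE 0.37, unadjusted p = 0.037, adjusted p = 0.141), just under the fold limit. With library size alone it was called, at 1.22, as it was without input 2, at 1.18. With the trends taken out it was at 0.19 (unadjusted p = 0.622).

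Kcnip1 and Kcna2 were the depleted subunits of Kv channels. Kcnip1, a calcium-binding subunit of A-type Kv4 channels, had 117 and 88 input counts and 26 and 15 RIP counts (3.51, 2.56, 1.03 and 0.624 CPM). Its log2 fold change was -1.87 (SE 0.49, adjusted p = 0.040). Kcna2, a Kv1 pore of axons, had 1.68 and 5.62 CPM in input and 0.793 and 0.915 in RIP, a log2 fold change of -2.09 (SE 0.62, adjusted p = 0.059; 0.0099 with the replicate block). The value of Kcna2 leaned on input 2, and without it the log2 fold change was -0.98 and not called. With its 11582 nt transcript, Kcna2 was the 1 depleted channel over 7500 nt.

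Kcnk2, a relative of Kcnk10 in the K2P family, was depleted where Kcnk10 was enriched. It had 62 and 39 input counts and 11 and 15 RIP counts, with a log2 fold change of -1.49 (SE 0.60, adjusted p = 0.139). The pseudogene Pdcd5-ps lies within Kcnk2 on the same strand and had 66 counts over the 4 libraries against 127 for Kcnk2, so reads could be split between them.

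Kv1 members lay on both sides of input. Kcna4 was enriched and Kcna2 depleted, while Kcna1 was at -1.10 (SE 0.96, adjusted p = 0.482) with overlapping groups and Kcna5 at 0.35 (SE 0.36, adjusted p = 0.561). Kcna1 had 2 counts in RIP 2, and was at -3.10 (unadjusted p = 0.0497) without RIP 1 and at -0.24 without RIP 2. The difference between the members was not tested. Of all 26 tested Kv pore-forming genes, 3 were enriched and 1 depleted, where 9.43% and 17.2% of all tested genes were. The median log2 fold change of these 26 was 0.38.

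Among calcium channel pores, 6 of the 8 tested were above 0, where the median of all tested genes was -0.05. Cacna1b alone was called, where 9.43% of all tested genes were enriched and 17.2% depleted. Cacna1d, the L-type pore that opens at low voltage, was at 0.82 (SE 0.43, adjusted p = 0.242; called at 1.16 with library size alone and 1.32 without input 2) and Cacna1h at 0.29 (SE 0.33, adjusted p = 0.599). Cacna1a, the P/Q-type pore and close relative of Cacna1b, was at -0.72 (SE 0.40, adjusted p = 0.267), with 4.23 and 3.88 CPM in input and 2.89 and 2.04 in RIP. With length and GC trends taken out it was called depleted, at -1.84 (adjusted p = 0.047). Cacna1c was at 0.28 with overlapping groups. Genes on the opposite strand had more counts than Cacna1c and Cacna1d themselves (Dcp1b, 457 against 143, and Dcp1a, 1229 against 476), and the strand setting of the counting is not given in the sources used here.

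The named cytoplasmic and extracellular calcium channel subunits lay less than their standard errors from input. Cacnb3 was at 0.10 (SE 0.38), Cacnb2 at 0.11 (SE 0.85), Cacna2d1 at -0.05 (SE 0.50) and Cacna2d4 at 0.17 (SE 0.41), with overlapping groups in each. None of the 4 beta and 4 alpha2delta subunits tested was called, where 9.43% of all tested genes were enriched and 17.2% depleted.

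No sodium channel was called in the main analysis, where 9.43% of all tested genes were enriched and 17.2% depleted. Scn1a had 11 and 22 input counts and 29 and 34 RIP counts, without overlap, and a log2 fold change of 1.39 (SE 0.64, unadjusted p = 0.058, adjusted p = 0.184). It was called enriched with library size alone (1.68), without the low-count filter (1.45), with at least 10 counts in every library (1.32) and without input 2 (1.94), and was at 0.82 with the trends taken out. Scn2a, Scn3a and Scn8a were at 0.16, 0.07 and 0.31, with overlapping groups. All of these have transcripts over 7500 nt.

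The remaining named potassium channels were not called in the main analysis. Kcnc1 was at 0.03, and at -1.06 (unadjusted p = 0.037) with the trends taken out. Kcnc2 was at 0.85 (adjusted p = 0.225), but at 1.17 (unadjusted p = 0.039) with library size alone and 1.27 without input 2. Kcnma1, the pore of large-conductance calcium-activated channels, was at 0.34, and at 1.14 (unadjusted p = 0.045) without input 2. Kcnk1 was at 0.59. Kcne1l was at -0.85 (adjusted p = 0.283). It was -0.019 without input 1 and -1.38 (unadjusted p = 8.5e-05) without input 2.

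A few members under the filter had all or most of their counts on 1 side. They were named after their values were seen. Kcnip4 had 25 input counts and none in the RIP, at least 6.07-fold lower there, and Kcnn3 had 21 and none, at least 5.10-fold lower. Kcnk5 had no input counts and 17 in the RIP, at least 7.78-fold higher. Kcnq5 had 2 input counts and 12 in the RIP, a ratio of input to RIP of 0.121 (counting interval 0.0132 to 0.545). The gene 5730480H06Rik overlaps Kcnip4 on the other strand, with 350 counts over the 4 libraries. These intervals and floors cover counting error only. They take a count as 1 molecule, which the tables do not bear out at the low end, since 85 protein-coding genes had a count of 1 in input 1 while 467 had a count of 3.

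Fold change followed transcript length over the whole transcriptome, and the channels are long. The median transcript of the tested channels was 5077 nt long, and that of all tested protein-coding genes was 3339 nt. Enriched channels had a median of 7460 nt and depleted channels 3572 nt. Over all genes the corresponding medians were 4861 and 1616 nt. Across genes, log2 fold change and log2 length had a Spearman rho of 0.487 over 11953 transcripts and 0.327 over the 78 channels; genes of a library share its depth and are not replicates.

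Channel calls were also counted within bands of transcript length. From 2500 to 7500 nt, 3 of 48 channels were enriched (6.25%) against 12.7% of all, and 5 were depleted (10.4%) against 5.96%. Over 7500 nt, 2 of 23 channels were enriched (8.70%) against 23.0%, and 1 was depleted (4.35%) against 3.38%. Under 2500 nt, none of 7 was enriched and 3 were depleted, against 2.59% and 33.6%. The 3 were Cacng7, Cacng8 and Kcnip1. None of these shares was tested for a difference.

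**Figure D5:**
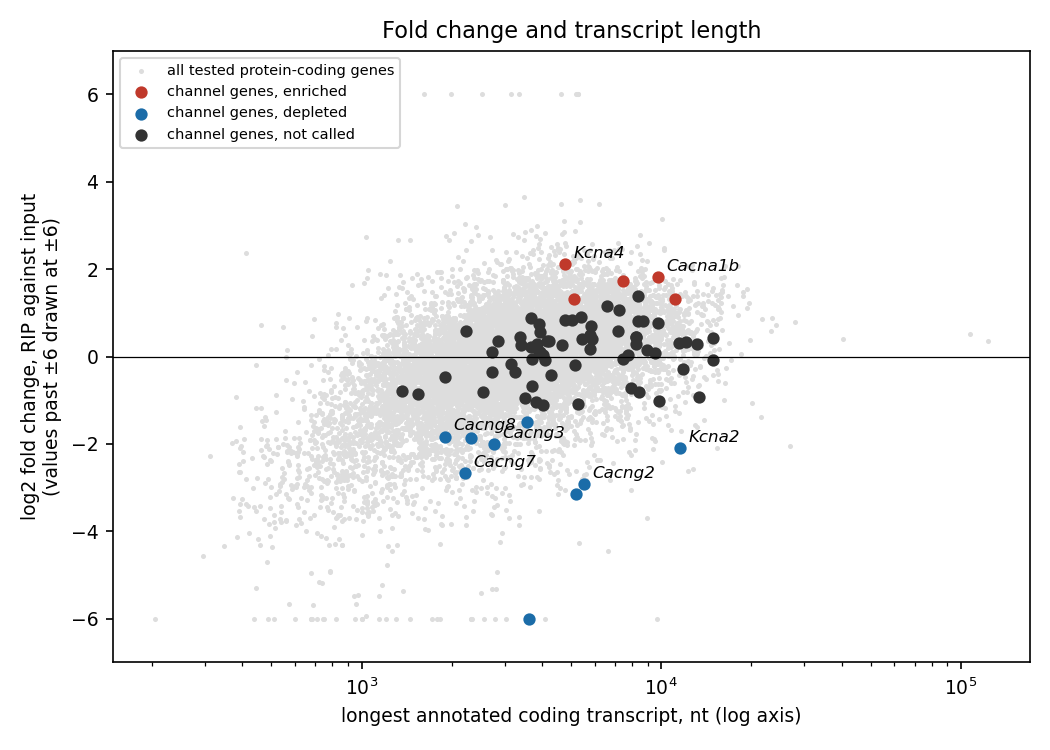
Log2 fold change, RIP against input, plotted on the length of the longest annotated coding transcript (log axis) for all 11953 tested protein-coding genes in grey and the 78 channel genes in colour. The cloud rises with length, and Cacng2 and Kcna2 lie low for their length of 5510 and 11582 nt.

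Length also moved with the difference between the inputs. The difference between input 2 and input 1 had a rho of 0.387 with length over the 78 channels and 0.353 over all protein-coding genes. Inputs agreed less than RIP libraries did. For the 24 channels with 50 or more counts in each library, the median absolute log2 difference between replicates was 0.739 for the inputs and 0.125 for the RIP. The inputs were at least 2-fold apart in 5 of the 24 and the RIP libraries in none. The part of length in the channel results was examined only by taking its trend out, together with that of GC content. This left 1 enriched channel, with 5.29% of all genes enriched, and 14 depleted channels, with 14% of all depleted. Cacng2 was then at -3.70, Cacng7 at -2.79 and Cacng3 at -2.27, and Cacng4 passed the fold limit at -1.44.

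Partners of the channels, a list of 36 symbols outside the naming rule, gave 2 enriched (6.06%) and 4 depleted (12.1%) among 33 tested genes, against 9.43% and 17.2% of all genes. The enriched were Adam22, the neuronal receptor of Lgi1, at 1.11 (SE 0.42, adjusted p = 0.121), and Amigo1, a neuronal adhesion protein, at 1.07 (SE 0.38, adjusted p = 0.098). Amigo1 was at 3.69 and 3.06 CPM in input and 6.3 and 7.9 in RIP, without overlap.

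The depleted partners were calmodulin genes and cell-surface or synaptic proteins. Calm2 and Calm3 encode calmodulin, the calcium sensor bound by many channels, and were at -1.67 (adjusted p = 0.016) and -1.43 (adjusted p = 0.048). Cntnap2, which clusters Kv1 channels on axons, was at -1.42 (adjusted p = 0.0505), and Rims2, which ties calcium channels to synaptic vesicles, at -1.19 (adjusted p = 0.131). Cntnap2 had 13.1 and 7.66 CPM in the inputs, with 3.65 and 4.12 in RIP. The median log2 fold change of the 33 partners was 0.01.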

How the data were processed

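Libraries of input RNA and of RNA pulled down with anti-YTHDF2 were made by the authors with a TruSeq Stranded kit. The submitters' processing notes name STAR 2.5, HTSeq and the GRCm38 build. Annotation release and strand setting are not given in the sources used here. The authors deposited whole-number counts per gene and a table of FPKM, values scaled by the authors to the length of each gene and the size of each library. Groups and replicate numbers came from the labels. The channel genes, families and partner and marker lists were chosen with earlier results of these data known.

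Counts were tested in R 4.3.3 with edgeR 4.0.16 over the whole table. The filter was filterByExpr with a minimum count of 10 and a minimum total of 15, and scaling used TMM. Tests used glmQLFit and glmQLFTest with Benjamini-Hochberg adjustment. Standard errors are the log2 fold change over the square root of F. Logs of the CPM of single libraries used a pseudocount of 0.1. Lengths, GC content and coordinates came from GENCODE M21 (GRCm38), which held all 137 channel genes. With 2 against 2 libraries an exact permutation test cannot go below p = 0.333. The methods call the RIP replicates biological; how retinas were pooled is not given in the sources used here, and p-values measure the spread between these libraries.

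The design text gives each replicate its own input and pulldown, so equal numbers pair the libraries. Across 13632 genes, the difference between inputs and that between RIP libraries had a Spearman correlation of -0.033. The fit left the replicate out, and the block was an alternative. Other alternatives were library size alone, DESeq2 1.42.0, other count filters, trends with length and GC taken out (mgcv 1.9.3), each library left out and no fold minimum. On simulated data the fit called 89.0% of 200 changed genes and 4.09% of unchanged ones, over 13526 genes. The changed genes were given folds past the call limit and were not drawn from the lowest counts. No trend with length was built in. The 89.0% is thus not a rate for channels near the limit or at low counts. Named genes were all called channels, the 8 highest input FPKM values, a list of retinal channels and called partners, apart from some that are not reported here but stay in the counts. Kcnj9, Cacng1, Cacng5, Cacng6, Kcnip4, Kcnn3, Kcnk5 and Kcnq5 lie outside this rule and were named after their values were seen.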

Additional observations from a re-analysis of the deposited data

How the results depend on the processing

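Enriched channels numbered 5 in the main analysis (9.43% of all genes) and 11 with library size alone (17.3% of all genes), which moved the median of all genes from -0.05 to 0.27. With the length and GC trends taken out 1 was enriched (5.29% of all genes), as it was with the replicate block added (6.07%). Depleted channels numbered 9 (17.2% of all genes), and 14 with the trends taken out (14% of all genes). With the replicate block as well there were also 14 (13.8% of all genes). At adjusted p, the 2 above input (3.48% of all genes) became 1 with DESeq2 (3.02%) and 0 without a filter on low counts (1.25%). The number was 4 with the replicate block (5.29%). It was 0 with the trends taken out (0.84%), also with the block added (2.12%). The 5 below (9.78% of all genes) became 3 without a filter (3.81%). At the unadjusted fold and p limits these counts of 0 correspond to 7 enriched channels without a filter (6.68% of all genes) and 1 with the trends taken out. The median difference of 0.19 was 0.32 with DESeq2, 0.29 without a filter, -0.29 with the trends taken out and -0.27 with the replicate block as well. With 1 library left out, enriched channels ran from 2 (without RIP 2, 4.65% of all genes) to 14 (without input 2, 15% of all), with 8 without input 1 (12.3% of all) and 3 without RIP 1 (4.52% of all). Depleted ran from 7 to 12, above at adjusted p from 0 to 12, below from 0 (without either RIP library) to 9 (without input 2), and the median difference from 0.14 to 0.32. The shares of all genes called moved in these fits as well. Of all genes, 10.8% were depleted without RIP 2, the fit with 7 channels, and 17.3% without input 1, the fit with 12. Above input at adjusted p were 16.7% of all genes without input 1, the fit with 12 channels. Without RIP 1 and without RIP 2 this share was 0.054% and 0.060%. Below input at adjusted p were 19.8% of all genes without input 2, and 0.76% and 1.2% without RIP 1 and without RIP 2. A group left with 1 library was assumed to vary like the other. The causes were not tested.

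The 13 called channels named here kept their direction in every alternative that tested them. Calls were lost with DESeq2 for Kcnv2, Kcnj3 and Kcnk2, with library size alone for Kcnk2, and with the trends taken out for Cacna1b, Kcnk10 and Kcnv2. Leaving out 1 library ended the call of Kcna4 (without RIP 2), Kcnk10 and Kcnj3 (RIP 1), Kcnv2 (either RIP), Kcna2 (input 2 or RIP 1), Kcnip1 (RIP 2), Cacng8 (input 1 or RIP 2) and Kcnk2 (input 1 or either RIP), whereas Cacna1b, Cacng2, Cacng7 and Cacng3 kept theirs at the unadjusted limits, as did Kcnj6 without either RIP library; without an input it was not tested. Calls were gained as well: Scn1a, Kcnj10, Kcnc2 and Cacna1d with library size alone, Scn1a without a filter, Scn1a and Cacng4 with at least 10 counts in every library, Cacng4, Cacna1a and Kcnc1 with the trends taken out, Kcna1 without RIP 1, and Scn1a, Kcnj10, Kcnc2, Kcnma1, Cacna1d, Cacng4 and Kcne1l without input 2. Changes of sign concerned channels uncalled in the main analysis. With the trends taken out, and with the replicate block added, log2 fold changes were -0.38 and -0.30 for Cacnb3, -0.90 and -0.92 for Cacna1h, -1.06 and -1.04 for Kcnc1, -0.36 and -0.37 for Kcnma1, -0.43 and -0.44 for Scn2a, -0.44 and -0.48 for Scn3a, -0.60 and -0.61 for Scn8a, -0.61 and -0.74 for Cacna1c, -0.67 and -0.64 for Cacna2d4, and -0.24 and -0.30 for Cacnb2, while Cacna1d was at -0.014 without the block. Kcnc1 was at -0.041 with at least 10 counts in every library, and Cacna2d1 at 0.24 with library size alone and 0.078 with the replicate block. With 1 library left out, values ran from -0.27 to 0.58 for Cacnb3, -0.33 to 0.49 for Kcnc1, -0.21 to 1.14 for Kcnma1, -0.27 to 0.76 for Scn2a, -0.42 to 0.81 for Scn3a, -0.34 to 0.86 for Cacna1c, -0.56 to 0.74 for Cacna2d1, -0.15 to 0.57 for Cacna2d4 and -0.42 to 0.64 for Cacnb2. At the adjusted limit, the replicate block took Kcnj6 to an adjusted p of 0.0501, Kcna2 to 0.0099 and Kcna4 to 0.029. It changed no other call among the channels named here.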
